A study of Mus musculus with 12 samples.

Results

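Retinoic acid synthesis and receptor genes were examined in the pituitary gland of adult male mice: 10 genes, each found in the table of 18497 named genes by its exact symbol. They cover 4 enzymes of synthesis (Rdh10, Aldh1a1, Aldh1a2 and Aldh1a3), 1 enzyme of breakdown (Cyp26b1) and 5 nuclear receptors (Rara, Rarb, Rarg, Rxra and Rxrg). The animals were wild-type F1 offspring of C57BL/6J and 129S1/SvlmJ, and their embryos had been carried by CD1 recipient dams. In the vehicle group (6 glands) the zygote had received an injection of nuclease-free water. In the mimic group (6 glands) it had received let-7f-5p as a chemically stabilised LNA mimic dissolved in that water, at a concentration that the labels call stress-relevant without giving its amount. All embryos of both groups were injected and cultured, so an uninjected gland was not analysed here. RNA was taken from whole glands, 1 library per gland, and the labels name no litter and no dam for any gland. The p-values treat the glands as independent, which is an assumption. Those between the groups set the difference against the spread between these glands.

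Retinoic acid is made from vitamin A in a pair of steps. Rdh10 and related dehydrogenases oxidise retinol to retinaldehyde, and the Aldh1a enzymes oxidise retinaldehyde to retinoic acid. Enzymes of the Cyp26 family break retinoic acid down, which limits how long and how far it acts. Retinoic acid binds the receptors Rara, Rarb and Rarg, which sit on DNA as heterodimers with an RXR, and the RXRs also pair with thyroid hormone, vitamin D and other nuclear receptors. In the pituitary the pathway is known for acting on hormone genes: rexinoids lower thyrotropin through Rxrg in mice, and the rat growth hormone gene responds to retinoic acid.

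A pair of sequences is shown because they are the injected microRNA and the stretch in these genes' 3' UTRs that its seed matches. The first line is mature let-7f-5p as RefSeq lists it (GRCm38.p6), identical to the mimic sequence in the labels, with its seed (bases 2 to 8) in capitals. The second is the stretch of the Rdh10 3' UTR (bases 949 to 955 of 2317 in GENCODE M21, GRCm38) that matches this seed, in capitals.
let-7f-5p: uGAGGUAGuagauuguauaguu
Rdh10 seed match: aaaagtgaatttCTACCTCtgtatcta

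Of the 10 genes, only Rdh10 held such a match in its longest annotated 3' UTR, and it held 1, of the 7mer-m8 type. The other 9 had 0 matches in 3' UTRs of 350 (Rxrg) to 3269 bases (Rxra). Among 15496 tested genes with an annotated 3' UTR, 10.5% held a match, at a median length of 1187 bases. A match is a description of the letters and not a binding site.

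The promoter of Rarb is shown because Rarb is a textbook target gene of retinoic acid. The stretch lies before the transcription start at chr14:16575477-16575569 on the minus strand (RefSeq, GRCm38.p6), and capitals mark the 6-base units of a direct repeat with a spacer of 5 bases.
Rarb promoter: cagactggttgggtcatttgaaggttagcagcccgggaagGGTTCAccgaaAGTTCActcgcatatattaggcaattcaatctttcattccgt

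The repeat spans 53 to 37 bases before the start. The unit searched was AGGTCA, with AGTTCA as a variant, GGGTCA as another and GGTTCA as the last, on both strands and with spacers of 1, 2 and 5 bases. With a spacer of 5 bases, 32 of 32851 promoter windows held a repeat (0.0974%), and 1 of the 15 windows of these genes did, that of Rarb. With spacers of 1 and 2 bases the shares over all windows were 0.222% and 0.268%, and 0 of the 15 windows held one. The 15 windows belong to 8 of the 10 genes, and Aldh1a3 and Rdh10 had no window in the table used.

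Levels are given as normalised read counts, which are the authors' counts divided by a size factor for each library. Depth was 26378308 to 37061136 reads per library, recovered from these values and summed over named genes. All 10 genes were read in every gland, and of the listed markers of the 5 endocrine cell types of the anterior lobe none that was tested was at 0 in any gland. The melanotroph markers varied widely between glands: their summed level ran from 53485 to 437338 normalised counts in vehicle glands and from 141672 to 650669 in mimic glands. Pomc made up most of this sum, and Drd2 and Tbx19 also stand in the lactotroph and corticotroph lists. Vehicle 6, vehicle 1 and vehicle 4 were the lowest in the 6 melanotroph markers, none of which was at 0 in any gland. The same 3 glands were the lowest in the 15 posterior lobe and pituicyte markers, of which 3 (Lhx2, Avp and Oxt) were at 0 in at least 1 gland. Scn7a, a sodium channel gene of this list, had 104, 91.6 and 485 normalised reads in these glands against 2884 to 11464 in the others. Posterior lobe markers summed to between 14551 and 38993 in vehicle and between 20076 and 24091 in mimic glands. In whole glands, fewer cells of a type and less RNA per cell cannot be told apart.

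To compare genes with each other, counts were divided by the length of the longest coding transcript in GENCODE M21. On this scale Aldh1a2 and Rxrg were the most abundant, at 863 ± 102 and 833 ± 125 normalised counts per kb (mean ± SD, n = 12 glands). Both lay above 87.0% of the 15579 tested genes with a length. Their ranges overlapped, and Aldh1a2 was higher in 8 of 12 glands. Rxra followed at 381 ± 30.9 per kb and Aldh1a1 at 348 ± 53.4 (SD, n = 12), with overlapping ranges. Rarg stood at 234 ± 36.6, Rarb at 188 ± 14.6, Rdh10 at 148 ± 12.6 and Rara at 119 ± 22.1 per kb, each range overlapping that of its neighbours. Cyp26b1 was lower, at 57.8 ± 23.2 per kb, and Aldh1a3 was the lowest, at 9.87 ± 1.82 per kb. The ranges of Cyp26b1 and Aldh1a3 did not overlap (31.8 at the lowest against 13.8 at the highest), nor did those of Rxrg and Rxra (632 against 409).

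**Figure D1:**
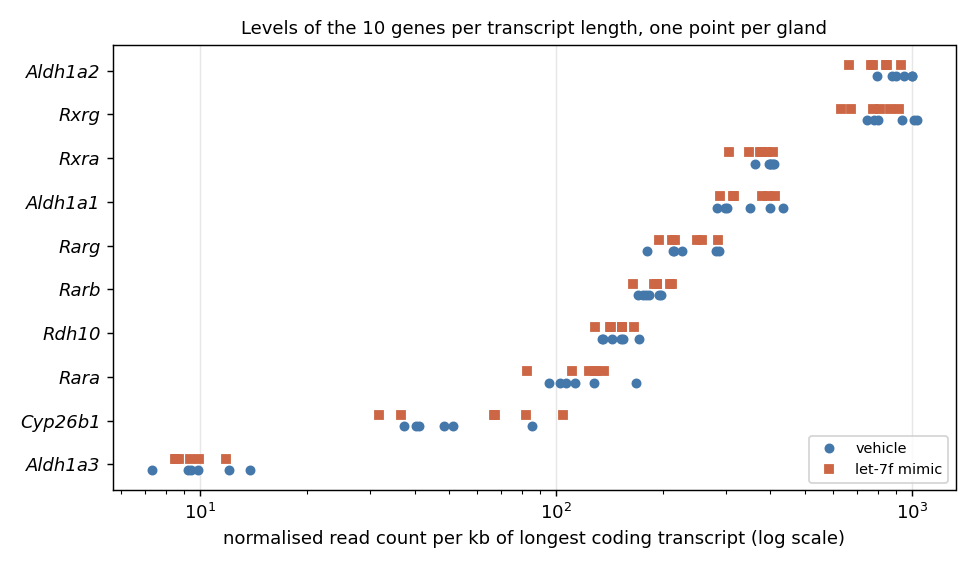
Normalised read count per kb of the longest coding transcript (log axis) for each of the 10 genes, 1 point per gland, circles for vehicle and squares for the mimic. Aldh1a2 and Rxrg lie highest and Aldh1a3 lowest, between 7.29 and 13.8 per kb, and the points of the groups overlap for every gene.

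This order depends on the length used. With the median length of the coding transcripts, Rxrg, Rxra and Aldh1a2 were the top 3, with Rxra at 941 per kb. Aldh1a2 and Rdh10 have 1 coding transcript each, so their values could not change. Values for Aldh1a1, Rxrg, Cyp26b1 and Rara changed by less than their SD over glands.

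Within the families, shares of the summed level were computed per gland. Aldh1a2 made up 72.3% ± 3.70 of the summed Aldh1a level per kb in vehicle glands and 69.1% ± 2.15 in mimic glands (SD, n = 6 each), and Aldh1a1 nearly all of the rest. Aldh1a3 contributed 0.801% ± 0.139 and 0.822% ± 0.152. Among the retinoic acid receptors, Rarg held 43.4% ± 4.61 in vehicle and 42.8% ± 2.85 in mimic glands, Rarb 34.5% ± 4.17 and 35.4% ± 3.29, and Rara 22.1% ± 4.01 and 21.7% ± 3.70. Among the RXRs, Rxrg held 54.5% ± 2.83 in vehicle and 52.0% ± 2.32 in mimic glands, ahead of Rxra (24.5% ± 1.80 and 24.6% ± 1.63) and Rxrb (21.0% ± 1.19 and 23.4% ± 1.98). The shares depend on the transcript length, and no test was made on them. With the median length, Rxrg and Rxra held nearly equal shares, 43.3% and 41.8% in vehicle and 41.4% and 41.9% in mimic glands. Rarg then held 61.4% and 60.8%, Rara 10.8% and 10.6%, and Aldh1a2 68.6% and 65.3% in vehicle and mimic glands.

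Mimic and vehicle glands were compared to see if adult expression of these genes differed after the injection at the zygote stage. None of the 10 genes passed the threshold. Limma on log2(normalised count + 1), two-sided with Benjamini-Hochberg adjustment over 18390 genes, called 0 of the 10, against 0% of all genes tested (0 of 18390). At an unadjusted limma p under 0.05 there was 1 of the 10, Aldh1a2, against 4.78% of all genes (879), so that 1 of 10 is a count near the background. The log2 fold changes were positive for 5 genes and negative for 5, with a median of -0.0025 beside -0.0005 over all genes tested. The groups overlapped for all 10 genes, and 0.12% of all genes (22) had groups that did not. Count tests on recovered reads gave 0 calls with edgeR (868 genes unadjusted) and 10 with DESeq2 (927 genes unadjusted), and the 10 genes described were not among them. The 95% interval excluded a doubling and a halving for all 10.

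**Figure D2:**
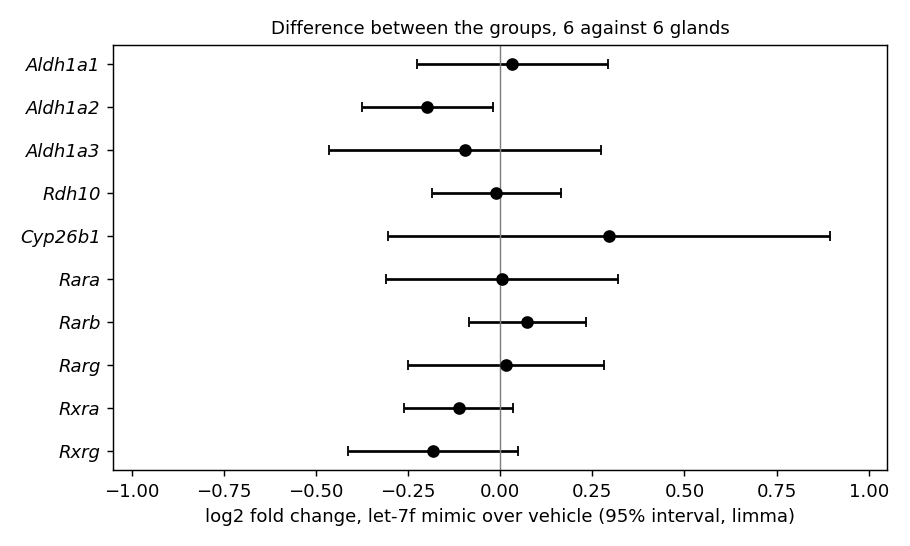
Log2 fold change of the mimic over the vehicle group for each gene (points) with the 95% interval from limma (bars), 6 against 6 glands. The interval is widest for Cyp26b1, from -0.31 to 0.90, and that of Aldh1a2 lies below 0 before adjustment (-0.38 to -0.02).

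Aldh1a2, the enzyme whose loss in mouse embryos removes most retinoic acid, was the synthesis gene with the most reads. In vehicle glands its lowest, median and highest normalised counts were 1799.9, 2092 and 2269.8. The corresponding values in mimic glands were 1501, 1837 and 2109. The mimic glands lay lower on average, with 5 of 6 below the vehicle mean, but the groups overlapped: mimic 1 lay above 3 of the vehicle glands. The means were 2085 ± 180.1 (vehicle) and 1822 ± 208 (mimic, SD, n = 6 each). On the log2 scale the difference was -0.20 (SE 0.08), with a limma p of 0.0314 before and 0.976 after adjustment (adjusted p). It ranked 514th of the 18390 genes by p. Leaving out 1 gland at a time moved the log2 fold change between -0.24 and -0.14 and the unadjusted limma p between 0.0100 and 0.0789, the highest without mimic 4. All 6 melanotroph markers were higher on average in mimic glands, with log2 fold changes from 0.30 (Drd2) to 1.59 (Oacyl). None passed (limma adjusted p 0.976 for each). Their unadjusted limma p was 0.0192 (Tbx19), 0.0252 (Oacyl), 0.0399 (Pcsk2), 0.0436 (Pomc), 0.0703 (Pax7) and 0.122 (Drd2). With values centred on group means, Aldh1a2 ran opposite to these markers over 12 glands (Pearson's r -0.62, permutation p 0.0193, adjusted p 0.225). With the level of the melanotroph and posterior lobe markers as a covariate the log2 fold change of Aldh1a2 was -0.15 (limma unadjusted p 0.107). Without the 3 vehicle libraries lowest in melanotroph markers, a choice made after seeing the data, it was -0.15 (limma unadjusted p 0.190). Of these, vehicle 1 and vehicle 6 were above the vehicle mean in Aldh1a2 (2270 and 2145) and vehicle 4 below it (2038.5). Leaving out all 3 lowered that mean, which by itself made the difference smaller. The part that melanotroph or posterior lobe tissue played in the level of Aldh1a2 was not tested.

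Aldh1a1, which oxidises retinaldehyde in many adult tissues, ran from 668 to 1022 normalised counts in vehicle glands (median 768) and from 683 to 973 in mimic glands (median 821). The groups covered nearly the same range. Its log2 fold change was 0.03 (95% interval -0.23 to 0.29), and its sign depended on which gland was left out. Aldh1a3, the third enzyme of the family, was the lowest of the 10. Its values ran from 25.1 to 47.5 in vehicle glands (median 33.2) and from 29.3 to 40.5 in mimic glands (median 31.1). Its within-group SD of 0.25 on the log2 scale was about the size of the counting error alone (0.25). Its log2 fold change was -0.10 (95% interval -0.47 to 0.27), and it lay between -0.19 without vehicle 5 and -0.0078 without vehicle 3.

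Rdh10, which supplies retinaldehyde and was the gene with the let-7 seed match, was among the steadiest of the 10. It ran from 484 to 615 normalised counts in vehicle glands (median 529.8) and from 461 to 593 in mimic glands (median 530.5). The medians nearly coincided, and vehicle 3 was the highest and mimic 3 the lowest. Its log2 fold change was -0.01 (SE 0.08, 95% interval -0.19 to 0.16, limma adjusted p 0.994).

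Cyp26b1, the breakdown enzyme, varied most. Its normalised counts in vehicle 1 to 6 were 168, 230.3, 185, 181, 384 and 217, and in mimic 1 to 6 they were 143, 165, 469, 301, 369.6 and 302. Vehicle 5 stood above the other vehicle glands, and the mimic glands fell into a low pair (1 and 2) and 4 higher ones. Across all 12 glands the highest value was 3.28 times the lowest, whereas the other 9 genes spanned 1.29 (Rarb) to 2.02 times (Rara). Its within-group SD was 0.56 on the log2 scale, larger than in 96.1% of the 1001 genes nearest to it in level, and the counting error was 0.10. Group means were 228 ± 79.9 for vehicle and 292 ± 123 for mimic glands (SD, n = 6 each). The difference of 0.30 on the log2 scale did not pass (SE 0.28, limma adjusted p 0.976). It lay between 0.13 without mimic 3 and 0.48 without mimic 1, and was 0.15 with the melanotroph and posterior lobe marker level as a covariate. Without the 3 vehicle libraries lowest in those melanotroph markers, a choice made after seeing the data, it was 0.08. These libraries, vehicle 6, 1 and 4, were below the vehicle mean in Cyp26b1, so leaving them out had to raise that mean. The part that melanotroph or posterior lobe tissue played in the level of Cyp26b1 was not tested. The relatives Cyp26a1 and Cyp26c1 were not among the genes of the table.

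**Figure D3:**
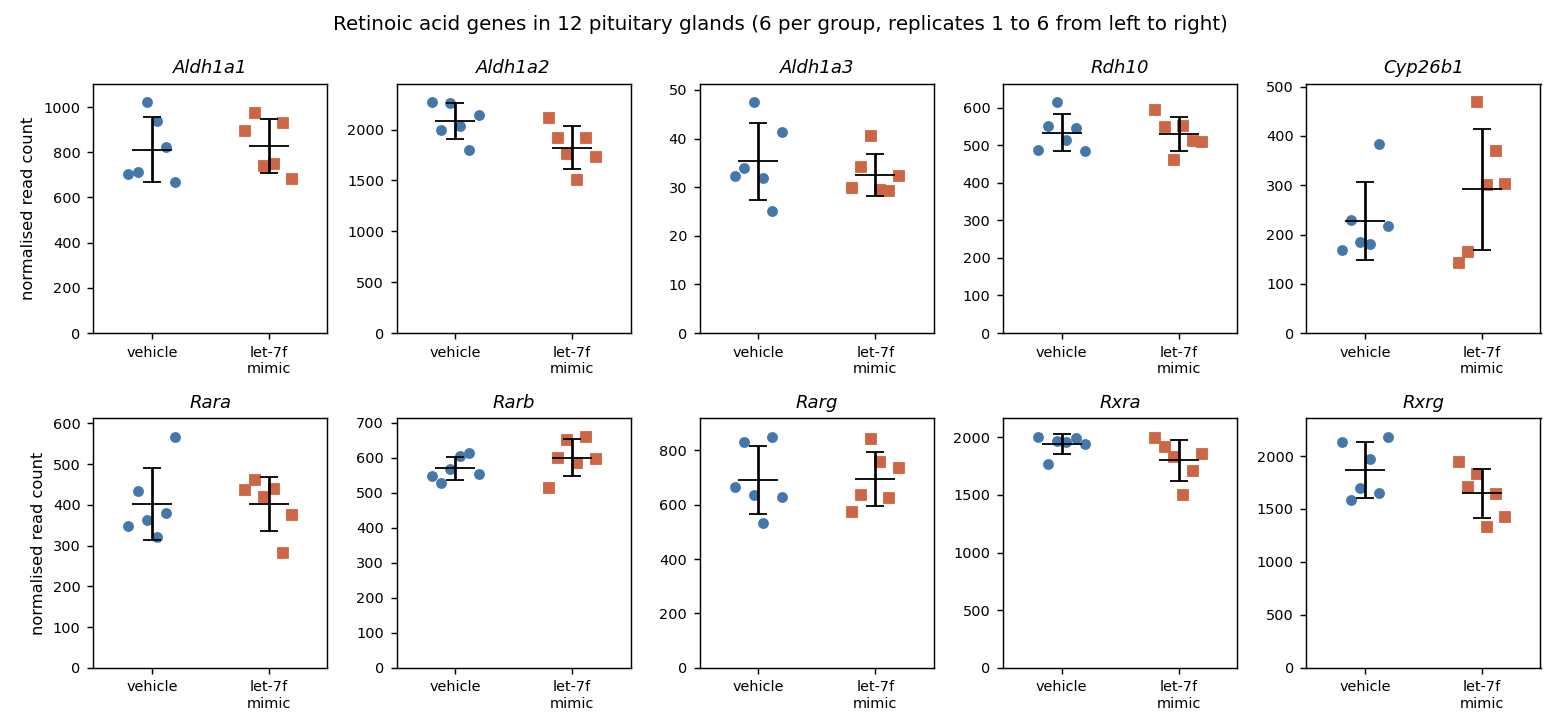
Normalised read count of each gene in every gland (circles for vehicle, squares for the mimic, replicates 1 to 6 from left to right), with the mean and SD of each group (n = 6) in black and axes starting at 0. The groups overlap in all 10 panels, and Cyp26b1 shows the widest spread, from 143 to 469.

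Among the retinoic acid receptors, Rara was at 322 to 567 normalised counts in vehicle (median 371) and 281 to 461 in mimic glands (median 427). Vehicle 6 was its highest and mimic 5 its lowest gland. Its log2 fold change was 0.01 (95% interval -0.31 to 0.32), a value whose sign was not stable. Rarb, itself induced by retinoic acid in many cells, was the most even gene of the 10 (coefficient of variation 7.74% over 12 glands). It ran from 528 to 612 in vehicle (median 561) and from 512 to 659 in mimic glands (median 597). Although 5 of 6 mimic glands lay above the vehicle mean, the groups overlapped, and the log2 fold change of 0.07 did not pass (SE 0.07, limma adjusted p 0.976). It was 0.05 without mimic 5 and 0.12 without mimic 1. Exons of Rarb overlap those of Top2b and Gm48162 on the opposite strand in GENCODE M21. The libraries kept the strand, but whether counting used it is not given in the sources used here. Rarg ran from 531 to 849 in vehicle (median 650.0) and from 573 to 843 in mimic glands (median 685). The medians differed by less than either range, and the log2 fold change was 0.02 (95% interval -0.25 to 0.28).

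Rxra, the general heterodimer partner, was tight in vehicle glands and wider in mimic glands. It ran from 1771 to 2004 in vehicle (median 1965) and from 1497 to 1994 in mimic glands (median 1844). Vehicle 2 and mimic 4 were the lowest of their groups. Its coefficient of variation was 4.44% in vehicle and 9.82% in mimic glands, a difference that was not tested. On average mimic glands were at -0.11 on the log2 scale relative to vehicle (SE 0.07, limma adjusted p 0.976), and 5 of the 6 were below the vehicle mean. Without mimic 4 the value was -0.06.

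Rxrg, the RXR with the most restricted expression, ran from 1579.95 to 2181 in vehicle glands (median 1834) and from 1334 to 1939.5 in mimic glands (median 1675). Vehicle 6, vehicle 1 and vehicle 4 were the 3 highest of all 12 glands, and mimic 4 and mimic 6 were the 2 lowest. Means were 1869 ± 262 for vehicle and 1647 ± 233 for mimic glands (SD, n = 6 each). Although 5 of 6 mimic glands were below the vehicle mean, the difference of -0.18 on the log2 scale missed the threshold (SE 0.11, limma adjusted p 0.976).

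The level of Rxrg ran opposite to the melanotroph markers (Pomc, Pax7, Oacyl, Pcsk2, Drd2 and Tbx19) from gland to gland. Pomc, the hormone precursor of these cells, had 50197, 45286 and 93810 normalised reads in vehicle 6, 1 and 4. Pax7, their defining transcription factor, had 85.1, 145 and 431. In mimic 4, the gland lowest in Rxrg, Pomc was at 606984 and Pax7 at 1924, the highest of all glands. With each gene centred on its group means, Pearson's r was -0.88 and Spearman's rho -0.90 over 12 glands (permutation p 0.00016 and 0.00020, adjusted p 0.0164 and 0.0280 over 140 relations of a gene with a marker list). Within the vehicle glands r was -0.95 and within the mimic glands -0.91 (n = 6 each). Without the pair of glands farthest from the median, vehicle 6 and vehicle 5, it was -0.90. Against the posterior lobe list, low in the same 3 glands, r was -0.70 and rho -0.76 (permutation p 0.00571 and 0.00492), which did not pass (adjusted p 0.133 and 0.138 over 140 relations). It was -0.88 within vehicle and -0.85 within mimic glands (n = 6 each), and -0.71 without vehicle 3 and vehicle 1. The log2 difference of Rxrg between the groups was -0.06 with the melanotroph and posterior lobe marker level as a covariate. It was -0.01 without the 3 vehicle libraries lowest in melanotroph and posterior lobe markers, chosen after the data were seen. These libraries, vehicle 6, 1 and 4, were also the highest in Rxrg, so leaving them out had to lower the vehicle mean. Rxrg also ran opposite to the neuron list (r -0.86, rho -0.80, permutation p 0.00046, adjusted p 0.0164 for r), whose members Snap25 and Syt1 are expressed by endocrine cells too. Adjusted over the same relations, rho did not pass for that list (adjusted p 0.107). The part that the amount of melanotroph or posterior lobe tissue in a gland played in the level of Rxrg was not tested.

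**Figure D4:**
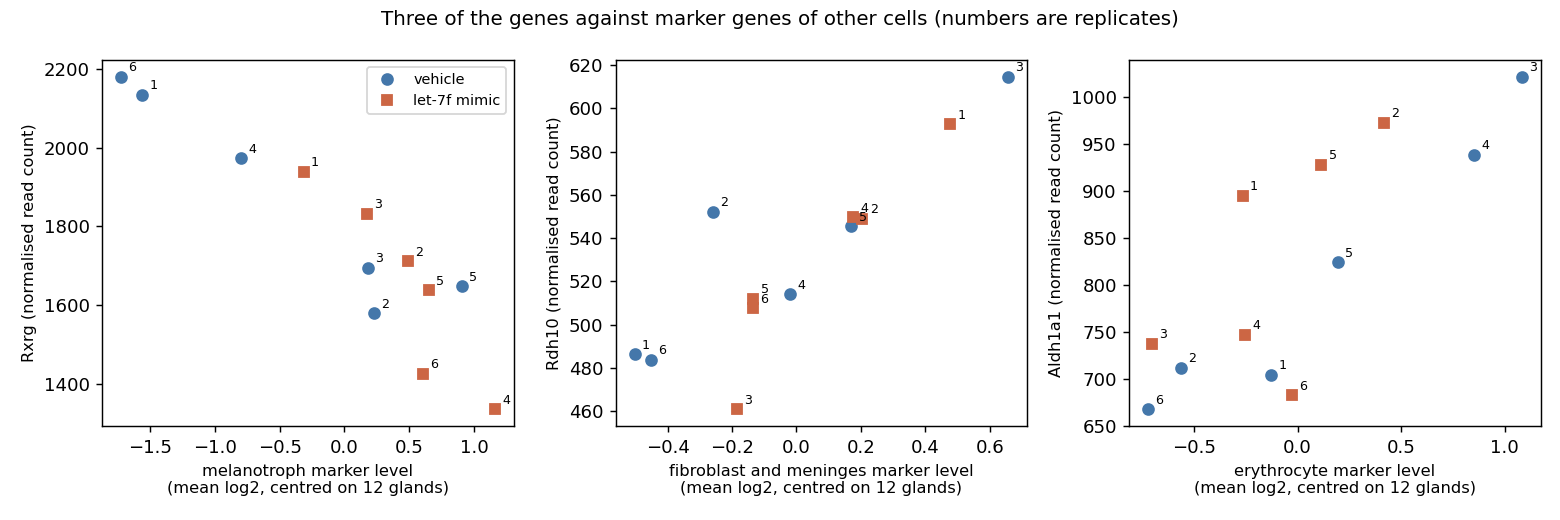
Normalised read counts of Rxrg, Rdh10 and Aldh1a1 (vertical axes) against the mean centred log2 level of melanotroph, fibroblast and meninges, and erythrocyte markers (horizontal axes), 1 point per gland, numbered by replicate. Rxrg falls as melanotroph markers rise (r -0.88) and Rdh10 rises with fibroblast markers (r 0.88). Aldh1a1 rises with erythrocyte markers (r 0.84), a relation that did not pass adjustment. Each r is of log2 values centred on group means, not of the points as plotted.

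Rdh10 rose and fell with markers of connective tissue. Against 8 fibroblast and meninges markers, among them the collagen gene Col1a1 and the proteoglycan gene Dcn, r was 0.88 and rho 0.90 (permutation p 0.00038 and 0.00051, adjusted p 0.0164 and 0.0357 over 140 relations). It was 0.89 within vehicle and 0.93 within mimic glands (n = 6 each), and 0.75 without vehicle 3 and mimic 1. Vehicle 3, the gland highest in Rdh10, was also highest in Dcn (7396 normalised counts, against 3208 to 5069 in the others). Col1a1 was at 2061 there, below mimic 1 (7746) and vehicle 5 (2464). Vehicle 3 was also highest in the endothelium, macrophage and posterior lobe lists. Rdh10 had r 0.71 with the macrophage list, 0.68 with the posterior lobe list and 0.66 with the endothelium list. None of these passed (permutation adjusted p 0.165, 0.155 and 0.306). Against the 5 pericyte and smooth muscle markers r was 0.85 (permutation p 0.00047, adjusted p 0.0164), while rho, at 0.82, did not pass (adjusted p 0.0607). The summed fibroblast markers ran from 12012 to 20627 normalised counts in vehicle and from 13315 to 25554 in mimic glands, and none was at 0.

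Aldh1a1 was highest in the glands with most erythrocyte markers, a relation that did not pass adjustment. Over 12 glands r was 0.84 and rho 0.76 (permutation p 0.0022 and 0.0119, adjusted p 0.0616 and 0.239 over 140 relations), with r at 0.97 within vehicle and 0.59 within mimic glands (n = 6 each). Without vehicle 3 and vehicle 6 it was 0.73. Haemoglobin beta mRNA (Hbb-bs) reached 19842 normalised reads in vehicle 3 and 12794 in vehicle 4, the vehicle glands highest in Aldh1a1 (1022 and 939). Mimic 2, the mimic gland highest in Aldh1a1 (973), had 6798, fewer than mimic 1 (10569, with Aldh1a1 at 895). The relation was not particular to erythrocyte markers. Aldh1a1 had r 0.74 with the fibroblast and meninges list, 0.73 with the stem and progenitor list and 0.69 with the thyrotroph list. None of these passed (permutation adjusted p 0.165, 0.214 and 0.214). Of the 140 relations with the 14 marker lists, the 4 given for Rxrg and Rdh10 were those that passed for r.

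Among themselves the genes were less closely tied, and 0 of 45 pairs passed adjustment. Cyp26b1 and Rarb, a pair known to be induced by retinoic acid, had r 0.70 and rho 0.58 over 12 glands (permutation p 0.0216 and 0.0688, adjusted p 0.262 and 0.516 over 45 pairs), and r fell to 0.50 without mimic 1 and mimic 5. Cyp26b1 and Rarg had r 0.71 (permutation p 0.00886, adjusted p 0.262). Aldh1a2 and Rxrg had r 0.69 (permutation p 0.0187, adjusted p 0.262), and Aldh1a2 and Cyp26b1 ran in opposite directions at -0.66 (permutation p 0.0329, adjusted p 0.262).

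The genes of the whole table with the most similar pattern over the 12 glands, by Pearson's r of group-centred values, are a description and carry no test. They were Enpp2 (r 0.95), Nudt11 (0.95) and Zbp1 (0.95) for Aldh1a2. For Rxrg they were Atp2c1 (0.96), Samd11 (0.95) and Erap1 (0.93). For Cyp26b1 they were Gm20696 (0.96), Wnk2 (0.93) and Rfx1 (0.93), and for Rdh10 Tbc1d12 (0.92), Nudt4 (0.90) and Zcchc24 (0.90). For Aldh1a1 they were Mia (0.95), Siva1 (0.94) and Emc7 (0.93). Rarg was closest to Tet3 (0.95), Rxra to Zfp472 (0.96), Rarb to Khdc3 (0.94) and Aldh1a3 to Ddx60 (0.90).

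The wider retinoid pathway was described with 8 lists by role, holding 92 different genes, of which 78 were in the table. Limma called 0 of the 78 after adjustment over all genes, and 5 (6.41%) had an unadjusted p under 0.05, near the 4.78% of all genes. Log2 fold changes were positive for 40 and negative for 38, with a median of 0.0079. Of the genes that take up, carry and store retinol, 13 of 16 were measured, with a median of 0.06. Lpl was at 0.19, Bco1, which cleaves carotene, at 0.32, the retinol receptor Stra6 at 0.56 and the carrier gene Rbp4 at -0.11. Of the enzymes that interconvert retinol and retinaldehyde, 14 of 16 were measured, with a median of -0.0057. Rdh1 and Rdh16 in this list belong to a family of related genes, and whether reads were shared between them was not tested.

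Of the genes for breakdown and binding of retinoic acid, 4 of 6 were measured. Fabp5, which carries retinoic acid and fatty acids, averaged 614 ± 94.5 normalised counts over vehicle and 488 ± 83.6 over mimic glands (SD, n = 6 each). Its log2 difference of -0.34 did not pass (SE 0.13, limma p 0.0219 unadjusted, adjusted p 0.976). All 6 mimic glands lay below the vehicle mean. The binding proteins Crabp1 and Crabp2 were low, at 9.09 to 31.8 and 22.02 to 113.4 normalised counts. Of 13 partner receptors of RXR, 12 were measured, with log2 fold changes negative for 10 and positive for 2 (median -0.09). Over all genes tested, 49.8% of log2 fold changes were positive. The oxysterol receptor gene Nr1h2 was at -0.17 (limma unadjusted p 0.0239, adjusted p 0.976) and the thyroid hormone receptor genes Thra and Thrb at -0.13 and -0.12 (limma unadjusted p 0.0461 and 0.104, adjusted p 0.976 for each). In each of these 3, all 6 mimic glands lay below the vehicle mean. Fabp5 and these 3 were named for a small p in the same data, a choice that favours such a split. The share of all genes with such a split was not counted. Of 14 coregulators 13 were measured, with a median of 0.02, and Nrip1, Ncoa1 and Ncoa3 were at -0.10, 0.07 and 0.07.

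**Figure D5:**
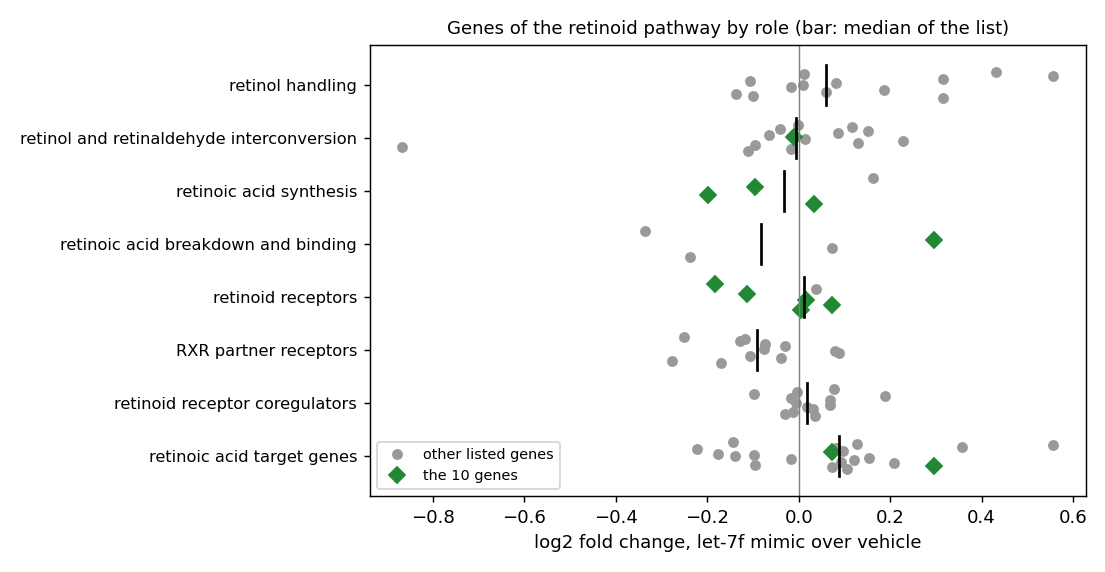
Log2 fold change of each measured gene of the 8 lists (grey circles), with the 10 genes described as green diamonds and the median of each list as a black bar. Medians lie between -0.09 for the partner receptors and 0.09 for the target genes, and no gene passed the threshold.

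Of 26 known target genes of retinoic acid, 20 were measured, and their log2 fold changes were positive for 13 and negative for 7 (median 0.09). The share positive over all genes tested was 49.8%. Meis1, a homeobox gene, averaged 477 ± 34.0 normalised counts over vehicle and 531 ± 30.2 over mimic glands (SD, n = 6 each). All 6 mimic glands lay above the vehicle mean, and the log2 difference was 0.15 (SE 0.07, limma p 0.0455 unadjusted, adjusted p 0.976). Meis1 too was named for its small p, a choice that favours such a split. Tshz1 was at -0.14, and the receptor tyrosine kinase gene Ret at 0.36. This list shares genes with other lists, among them Rarb, Cyp26b1, Stra6, Crabp2 and Nrip1, and it was drawn up from general knowledge and not from targets known in the pituitary.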

How the data were processed

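Stranded libraries were made from rRNA-depleted total RNA (labels' protocols). The tools were Trimmomatic 0.39, kallisto 0.50.1, FastQC 0.12.1, MultiQC 1.28 and DESeq2 1.48.2, with the build GRCm39, per the submitters' processing notes. As deposited, the table holds normalised read counts (a signal) for 12 libraries. Every value was a whole multiple of 1 step per library (100% within 0.001 of a whole number), which gave recovered reads for all 12. For mimic 3 and mimic 5 the step lies close to 1, though their values are not whole numbers themselves (Cyp26b1 at 468.772 and 369.598). No header or label says how kallisto's estimates became whole. A row without a gene name (0.0359% to 0.0567% of reads) was left out. Chi-square per degree of freedom was at least 19.3 between any pair of libraries, so none was a duplicate. No column went unused.

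The test was limma-trend (limma 3.58.1, R 4.3.3) on log2(value + 1), for the 18390 genes that reached 10 in 6 or more libraries, all 12 libraries, no covariate, threshold 0.05. Fold changes on this scale understate low genes. edgeR 4.0.16 (quasi-likelihood) and DESeq2 1.42.0 were run on recovered reads. DESeq2 gave no adjusted p for 3578 genes, Aldh1a3 among them. The fits were first tested on simulated data, with 50 changed genes per fold and 200 in all, each with a mean of at least 50. Noise was drawn independently for each gene. There limma recovered 66% of 1.5-fold and 96% of 2-fold changes, with 4.26% of its calls false. DESeq2 recovered 84% and 98%, with 14% of its calls false. These rates need not hold with fewer changed genes, with variation shared between genes, or at a lower level such as that of Aldh1a3.

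The genes, lists and markers were chosen with earlier results of these data known. Named genes are the 10 genes, up to 4 of smallest p per pathway list and the top 3 by likeness, not all printed. Other genes are named as examples of a list. Relations with markers used 100000 permutations within groups. Transcript lengths and 3' UTRs came from GENCODE M21 (GRCm38, not the authors' build) by symbol: 15579 of 18390 genes (84.7%) had a length. Values of some listed genes are not reported here.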

Additional observations from a re-analysis of the deposited data

Results flagged for a closer look

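Dixon's test, at its 95% critical value, marked an extreme gland in 2 of the 20 sets of 6 values (10 genes in each group). Chance marks about 1 in 20 sets. Cyp26b1 in vehicle 5 was at 383.5 normalised counts, against 168.3 to 230.3 in the other vehicle glands. Rxra in vehicle 2 was low at 1770.8, against 1944.7 to 2004.3 in the other vehicle glands.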

How the results depend on the processing

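No adjusted p of the 10 genes was under 0.05 under any of the 22 alternatives, and 191 of 219 fold changes had the sign of the reported value (Aldh1a3 was not tested with a minimum of 50). Fits with another gene filter or with the replicate block cannot change a fold change. Their signs were therefore fixed in advance, and they bear on the p-values only. Aldh1a2, Aldh1a3, Cyp26b1, Rarb, Rxra and Rxrg had the same sign in all of theirs, though without 1 gland Aldh1a3 ran from -0.186 to -0.0078, Rxra from -0.143 to -0.0604, Rarb from 0.046 to 0.119 and Rxrg from -0.233 to -0.125. Leaving out 1 gland at a time, the log2 fold change ran from -0.0194 to 0.103 for Aldh1a1, from -0.0447 to 0.0312 for Rdh10, from -0.0526 to 0.110 for Rara and from -0.0545 to 0.0806 for Rarg. Rara was at -0.0021 with edgeR and -0.0016 with DESeq2. With the melanotroph and posterior lobe marker level as a covariate Aldh1a1 was at -0.0479 and Rarg at -0.0555. Without the 3 libraries lowest in melanotroph markers, a choice made after seeing the data, they were at -0.0401 and -0.151. The cause was not tested. The number of genes called was 10 with DESeq2 and 0 in every other fit. With the median transcript length the level per kb was 26.5 for Aldh1a3, 338 for Rarb, 741 for Rarg and 941 for Rxra. With the replicate number as a block 0 genes were called. Aldh1a2 then had a limma unadjusted p of 0.0368, at a log2 fold change of -0.20 that a balanced block cannot move. The same-numbered glands did not deviate together (correlations from -0.15 to 0.09, and 1 of 6 vehicle glands correlated best with its own number). No pairing by number was seen, but the labels do not say which glands shared a litter or dam. Depth limits Aldh1a3, at 25.1 to 47.5 normalised counts.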

Other observations

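Of the listed genes, 3 chosen after their values were seen had single glands at high values. Stra6, the cell surface receptor for retinol, ran from 31.4 to 129.9 normalised counts in vehicle glands and from 37.8 to 233 in mimic glands, with mimic 2 the highest. Ttr, whose product carries retinol-binding protein in blood, stood at 817 in mimic 1 and at 43.4 to 113.9 in the other 11 glands. Ret was at 557 in mimic 4 and at 168 to 379.7 in the others.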
